A study of Mus musculus with 3 samples.

Results

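Expression of the CatSper channel and of the sperm ion transporters that work with it was followed through germ cell development in the adult mouse testis. The set held 10 genes, all found by symbol among the 31053 genes of the count matrices. They were the pore subunits Catsper1, Catsper2, Catsper3 and Catsper4, the auxiliary subunits Catsperb, Catsperd, Catsperg1 and Catsperg2, the sperm Na+/H+ exchanger Slc9c1, and the sperm K+ channel Kcnu1. Testicular cells were profiled by droplet-based scRNA-seq with 3′ tags in 3 libraries of C57BL/6 mice, 1 library each of wild type (WT), GRTH-KO (KO) and GRTH-KI (KI). GRTH, encoded by Ddx25, is a testis RNA helicase that takes part in mRNA export, storage and translation in spermatocytes and spermatids. The KO mice lack the gene, and the KI mice carry a knock-in mutation that leaves the helicase without its phosphorylated form. The labels give an age of 8 weeks and 1 mouse per genotype, whereas the study's methods describe testes pooled from 2 mice for each group over a wider age range. Spermatid development is known to stop before elongation in these mutants, so a late spermatid of a mutant is not a full counterpart of one in WT.

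Each genotype is 1 library. Cells of a library are not replicates, so no test between genotypes was possible. Every level is a sum of UMIs (unique transcript tags) over the cells of a cluster, given as CPM (counts scaled to the same total in every cluster and library) with an exact Poisson 95% interval that covers counting error only. A ratio to WT is the log2 of (CPM + 1) over (CPM + 1), and a difference of at least 1.5-fold is named as such without a claim that it would recur in other mice. Levels of different genes are not compared with each other, because only the 3′ end of each mRNA was counted.

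After cell calling and filtering, 5858 WT, 4065 KO and 1569 KI cells remained, with median UMIs per cell of 5137, 3971 and 11754. Their median mitochondrial share was 0.058%, 1.64% and 1.33%, so WT differed from both mutants in this as well. Called barcodes removed for few genes numbered 746, 46 and 178. The 3 matrices held 73150373 to 91388296 UMIs in all. Ddx25 served as a check of the labels and stood at 148 CPM in WT, 0 in KO and 144 CPM in KI in round spermatid-like cells. Between 8 and 37 cell barcodes were shared by a pair of libraries. Of 16 clusters, 1 was Early meiotic-like, 5 were spermatocyte-like (SP-like), 2 were round spermatid-like (RS-like) and 3 were elongating or elongated spermatid-like (ES-like). Their names rest on marker genes and the members took no part in the clustering. The ES-like class had 2455 WT, 515 KO and 204 KI cells, and cluster 4, among the latest of them, held 1125 WT cells, 10 KO cells and 1 KI cell.

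CatSper is a Ca2+ channel of the sperm tail. Its pore is built from CATSPER1 to CATSPER4, and large single-pass and small soluble auxiliary subunits hold the pore in long rows along the principal piece. Alkaline pH inside the sperm opens the channel, and SLC9C1 exchanges Na+ for H+ while KCNU1 (SLO3) carries the K+ current that hyperpolarises the membrane during capacitation. Loss of a pore subunit, of Catsperd, of Slc9c1 or of Kcnu1 makes male mice infertile through poor sperm motility. Because chromatin condensation silences transcription in late spermatids, mRNAs of tail proteins are made before the tail is complete and may be stored.

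The members fell into a spermatocyte group and a spermatid group, each named for its class of highest level in WT and not for first appearance. Promoters of genes from each are shown here because the members of a group had like patterns along development. Sequences are the 250 bases before a transcription start in RefSeq (build GRCm38.p6), read 5′ to 3′ on the strand of the gene, in lower case. Capitals mark every match, on either strand, to the cAMP response element core TGACG (which lies within the full element TGACGTCA, searched too), to the MYB core letters AACGG or AACTG, or to the RFX core letters GTTGCC. The first 3 promoters belong to genes of the spermatocyte group. Catsperb lies at chr12:101404423-101404672 (plus strand), Catsper2 at chr2:121413793-121414042 (minus strand) and Slc9c1 at chr16:45535016-45535265 (plus strand).
Catsperb: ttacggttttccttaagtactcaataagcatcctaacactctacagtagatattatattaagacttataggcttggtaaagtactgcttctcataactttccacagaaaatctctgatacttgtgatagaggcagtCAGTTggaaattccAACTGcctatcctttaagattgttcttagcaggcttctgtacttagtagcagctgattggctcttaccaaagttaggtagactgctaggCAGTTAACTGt
Catsper2: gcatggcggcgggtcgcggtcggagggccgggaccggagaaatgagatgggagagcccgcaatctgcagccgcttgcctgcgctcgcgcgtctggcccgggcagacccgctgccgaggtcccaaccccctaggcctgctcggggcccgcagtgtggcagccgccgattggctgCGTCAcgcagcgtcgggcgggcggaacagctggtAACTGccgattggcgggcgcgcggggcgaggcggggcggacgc
Slc9c1: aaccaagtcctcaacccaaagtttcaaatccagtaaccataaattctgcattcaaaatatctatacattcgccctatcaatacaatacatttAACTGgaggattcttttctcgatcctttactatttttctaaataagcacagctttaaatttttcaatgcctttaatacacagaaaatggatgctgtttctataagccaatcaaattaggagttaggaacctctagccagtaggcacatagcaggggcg
The next promoters belong to genes of the spermatid group, Catsper3 at chr13:55784329-55784578 (plus strand) and Catsper4 at chr4:134227384-134227633 (minus strand).
Catsper3: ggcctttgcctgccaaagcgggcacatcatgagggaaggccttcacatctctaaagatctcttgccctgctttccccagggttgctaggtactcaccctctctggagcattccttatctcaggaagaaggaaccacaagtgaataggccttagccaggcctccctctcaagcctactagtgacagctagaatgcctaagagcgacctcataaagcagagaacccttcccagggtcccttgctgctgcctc
Catsper4: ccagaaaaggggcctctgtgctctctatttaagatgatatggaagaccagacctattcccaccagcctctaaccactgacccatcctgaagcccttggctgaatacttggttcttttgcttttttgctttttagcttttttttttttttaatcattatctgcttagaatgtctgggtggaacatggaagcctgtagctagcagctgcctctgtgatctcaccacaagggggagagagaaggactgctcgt

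AACTG, or its reverse complement, was present in the promoters of Catsper2, Catsperb and Slc9c1 and in 1 of the 2 promoters each of Catsperd and Catsperg1, the members of the spermatocyte group with an entry. The other promoter of Catsperd, not printed here, held matches to TGACG and AACGG, and the other of Catsperg1 held no match. Catsperb held 4 such matches, of which a pair on opposite strands lies next to each other close to the start site. Catsper3 and Catsper4 held no match to any of the letters searched. The letters did not divide the groups, since Efcab9 and Lrrc52, which have the spermatid pattern, also hold AACTG. These letters are common, since 39.1% of 32851 mouse promoters of the same length hold AACTG, against 17.8% for TGACG, 14.5% for AACGG, 10.4% for GTTGCC and 1.5% for TGACGTCA. A match describes letters and is not a bound site. No promoter entry was used for Catsper1, Catsperg2 or Kcnu1.

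The genes lie on separate chromosomes except for the paralogs Catsperg1 (chromosome 7, 29181321 to 29214035, minus strand) and Catsperg2 (chromosome 7, 29697219 to 29727032, minus strand, build GRCm38). Their longest coding transcripts were identical at 96.47% of aligned bases. Of 301 windows of 100 bases in the last 400 bases of Catsperg1, 1 was found whole in Catsperg2, so most reads of their 3′ ends could be told apart, but single reads may have been assigned to the wrong paralog and both genes are reported with that limit. The start of Catsper2 (chromosome 2, 121392631 to 121413792, minus strand) overlaps Pdia3 on the opposite strand by a few bases at the 5′ end, away from the tags counted here. The Catsper2 promoter printed above therefore lies within Pdia3.

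Among the named germ cell classes of WT, 6 of the 10 members were highest in SP-like cells and the remaining 4 in RS-like cells. The unnamed cluster 2 and somatic classes are not part of this ranking. The spermatocyte group was Catsper2, Catsperb, Catsperd, Catsperg1, Catsperg2 and Slc9c1, and the spermatid group was Catsper1, Catsper3, Catsper4 and Kcnu1. Thus 1 pore subunit was highest in the same class as the large auxiliary subunits and the exchanger. The other pore subunits and the K+ channel were highest in the later class. The same split by class was found in KO and in KI. Among the ordered clusters described below, however, Kcnu1 was highest in SP-like cluster 8 in all 3 libraries, before the later pore subunits. At a finer clustering (Leiden resolution 1.0) the number highest in SP-like cells of WT was 2, and Catsperb, Catsperd, Catsperg1 and Catsperg2 were highest in Early meiotic-like cells, since a cluster with Piwil1 among its leading genes then took that name. Along clusters ordered by their stage markers (12, then 6, 11 and 8 for spermatocytes, 3 for round spermatids, 7 and 5 for elongating spermatids), the level of each gene is shown in the plot of levels by cluster. Cluster 1 and cluster 9, of low UMIs, the small cluster 13 and the unnamed cluster 2 were not placed in this order, and a cluster called highest below is the highest of the ordered ones. The choice of ordered clusters was made with the data in view.

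Some clusters outside the order held more of the members. Cluster 13, SP-like with 34 WT, 61 KO and 23 KI cells, held Catsperb at 786 (675 to 909), 887 (808 to 972) and 731 (634 to 839) CPM, above every ordered cluster. Slc9c1 stood there at 404 (326 to 495), 539 (478 to 606) and 508 (428 to 599) CPM. Catsper2 stood there at 608 (511 to 717), 553 (491 to 621) and 562 (477 to 657) CPM. All 3 genes were thus higher in cluster 13 than in any ordered cluster. Catsperd, at 460, 401 and 407 CPM, and Catsperg2, at 243, 173 and 202 CPM, were also higher there, while Catsperg1, at 178, 209 and 101 CPM, was lower there than in cluster 6 in KI. Of the spermatid group, Catsper1, Catsper3 and Catsper4 were higher in cluster 1 than in cluster 3 in every library, and Kcnu1 was higher in clusters 1 and 2 than in cluster 8.

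**Figure D1:**
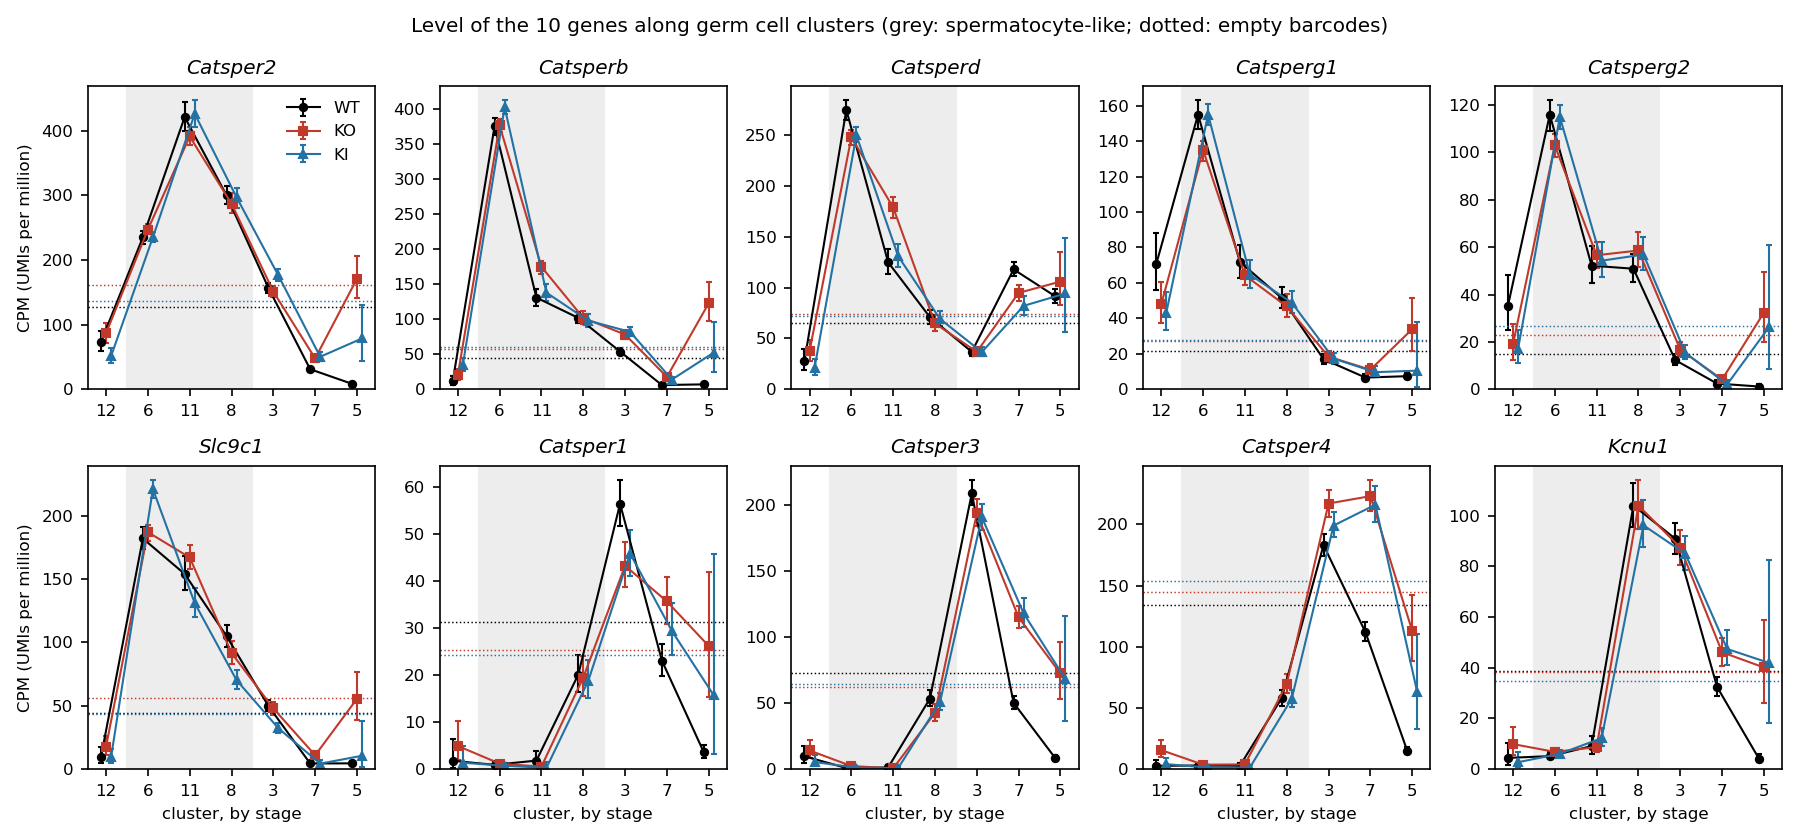
Level (CPM, y axis) of each of the 10 genes in 7 germ cell clusters ordered by stage (x axis) in WT (black circles), KO (red squares) and KI (blue triangles); bars are exact Poisson 95% intervals and dotted lines give the level in empty barcodes of the same library. Catsper2, Catsperb, Catsperd, Catsperg1, Catsperg2 and Slc9c1 are highest, among the clusters shown, in the grey spermatocyte clusters, whereas Catsper1, Catsper3 and Catsper4 appear at cluster 8 and are highest at cluster 3 or 7. Kcnu1 is highest at cluster 8, the last of the grey clusters.

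Catsperb encodes a large auxiliary subunit with an extracellular domain. It stood at 11.5 CPM in WT, with 19.7 in KO and 34.4 in KI in Early meiotic-like cluster 12, and at 376 (364 to 388), 377 (367 to 386) and 403 (393 to 413) CPM in cluster 6, whose leading genes include Piwil1, a PIWI protein of pachytene spermatocytes. It was lower in the next clusters, at 131, 175 and 138 CPM in cluster 11 and at 102, 102 and 98.1 CPM in cluster 8. Cluster 6 was thus the highest ordered cluster in all 3 libraries, with WT and KO intervals that overlapped there.

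Catsperd and the Catsperg paralogs, the other auxiliary subunits of the set, were also highest in cluster 6 among the ordered clusters. Catsperd stood at 275 CPM in WT, with 248 in KO and 250 in KI in cluster 6. Catsperg1 stood there at 155, 135 and 155 CPM. Catsperg2 stood there at 116, 103 and 115 CPM. In Early meiotic-like cells Catsperg1 was at 70.6, 47.9 and 43.1 CPM, which was 45.7%, 35.5% and 27.8% of the cluster 6 level in WT, KO and KI. In RS-like cluster 3 the paralogs were between 12.3 and 18.4 CPM in every library.

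Catsperd differed from the rest of its group by a second high level in spermatids. It was at 36.8 CPM in WT, with 36.8 in KO and 36.6 in KI in cluster 3, then stood at 118 (111 to 125), 94.9 (87.1 to 103) and 82.1 (73.4 to 91.6) CPM in cluster 7, whose leading genes include Tnp2 and Hils1 of condensing chromatin. In WT it was at 91.4 CPM in cluster 5 and at 42.4 CPM in cluster 4. Intervals of clusters 3 and 7 did not overlap in any library. Sertoli-like cells, which should lack the gene, held Catsperd at 75.1 (55.9 to 98.8), 98.2 (81.6 to 117) and 93.3 (71.4 to 120) CPM. Empty barcodes held it at 64.8, 74.5 and 72 CPM. In KO and KI the level in cluster 7 was thus not above that of Sertoli-like cells, and the part of free RNA in cluster 7 was not tested.

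Catsper2, the pore subunit of the early group, was higher in cluster 11 than in cluster 6, unlike the auxiliary subunits. In cluster 6 it stood at 235 CPM in WT, with 247 in KO and 235 in KI. In cluster 11 it stood at 421 (399 to 444), 391 (377 to 406) and 426 (406 to 447) CPM. In cluster 3 it stood at 157, 151 and 176 CPM, which was 37.3%, 38.5% and 41.3% of the cluster 11 level. Sertoli-like cells, which should lack the gene, held it at 138 (112 to 169), 197 (173 to 223) and 178 (147 to 213) CPM. Empty barcodes held it at 127, 161 and 137 CPM. The level in cluster 3 was thus not set apart from that of Sertoli-like cells, and the part of this background in it was not tested. For Catsperb the level in cluster 3, relative to cluster 6, was 14.4%, 20.8% and 20.3%.

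Slc9c1 followed Catsperb closely in its onset. It stood at 9.71 CPM in WT, with 17.6 in KO and 9.44 in KI in cluster 12, and at 182 (174 to 191), 187 (180 to 193) and 221 (214 to 228) CPM in cluster 6. In cluster 11 it was at 154, 167 and 131 CPM. KI was thus the highest library in cluster 6 and the lowest in cluster 11.

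Catsper1, Catsper3 and Catsper4 were at under 4 CPM in clusters 6 and 11 of every library. Catsper3 stood at 0.802 CPM in WT, with 2.32 in KO and 1.01 in KI in cluster 6, from 8, 38 and 17 UMIs. It was at 53.5, 42.6 and 50.8 CPM in cluster 8 and at 209 (200 to 219), 194 (184 to 205) and 191 (181 to 201) CPM in cluster 3. Catsper3 therefore appeared at the same step in all 3 libraries, and between SP-like and RS-like cells as whole classes the level was 15, 32.1 and 27.8 times higher in WT, KO and KI.

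Catsper4 and Catsper1 appeared at the same step. Catsper4 stood at 58, 69.6 and 57.5 CPM in cluster 8 and at 183, 217 and 199 CPM in cluster 3 (WT, KO and KI in this order). Catsper1, which carries the histidine-rich tail thought to sense pH, stood at 20.1, 19.5 and 18.8 CPM and then at 56.5 (51.8 to 61.5), 43.3 (38.7 to 48.4) and 45.9 (41.2 to 51) CPM. Both mutants were below WT for Catsper1 in cluster 3 by less than 1.5-fold, with intervals that did not overlap.

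Kcnu1 began earlier within this group. It stood at 9.05 CPM in WT, with 8.68 in KO and 12.2 in KI in cluster 11, then at 104, 104 and 96.2 CPM in cluster 8 and at 90.9, 87.4 and 85 CPM in cluster 3. Its level in cluster 8 was therefore already above that in cluster 3, with intervals that overlapped in WT and KI and did not in KO (94.8 to 114 against 80.7 to 94.4). Lrrc52, the auxiliary subunit of this channel, was at 3.26, 5.04 and 2.96 CPM in cluster 8 and at 63.8, 66.2 and 65.6 CPM in cluster 3, so the partner gene appeared 1 cluster later.

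**Figure D2:**
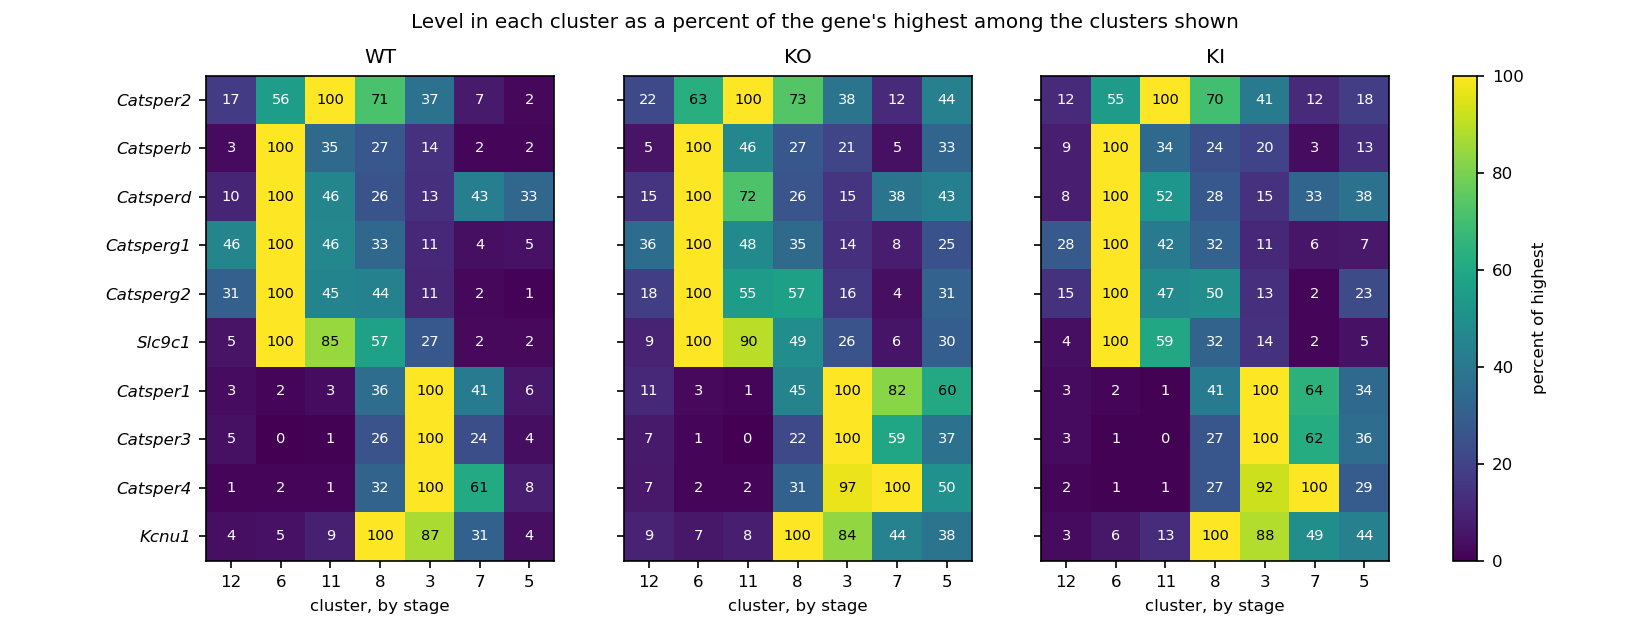
Level of each gene (rows) in each cluster (columns, ordered by stage) as a percent of that gene's highest level among these 7 clusters, in WT, KO and KI; colour and the printed number show the percent. Cluster 6 holds 100% for Catsperb, Catsperd, Catsperg1, Catsperg2 and Slc9c1 in every library, cluster 11 for Catsper2, cluster 8 for Kcnu1 and cluster 3 for Catsper1 and Catsper3, while Catsper4 reaches 100% in cluster 3 in WT and in cluster 7 in KO and KI.

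RS-like cluster 1 was set apart from cluster 3 by low UMIs per cell (medians of 1217.5, 1386 and 1947 for WT, KO and KI, and of 12462, 13076 and 27973 in cluster 3), while its leading genes were spermatid genes such as Acrv1, Pdilt and Spaca1. Catsper3 stood there at 638, 801 and 1044 CPM, and Kcnu1 at 205, 185 and 202 CPM. Barcodes of this cluster hold about as many UMIs as the Sertoli-like ones, and whether they are whole cells was not tested.

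Other genes of the CatSper complex had the patterns of both groups. Of a list of 9, 7 were matched in the files. Catspere2, another large auxiliary subunit, had 212 CPM in SP-like and 50 CPM in RS-like cells of WT, the pattern of the spermatocyte group. Efcab9, the Ca2+ sensor of the complex, had 47.8 and 556 CPM, and Tmem262, a small membrane subunit, had 18.8 and 275 CPM, the pattern of the spermatid group. Efcab9 binds CATSPERZ, and Catsperz was at similar levels in the classes, 1469 and 1343 CPM. The transporter-like subunit Slco6c1 (321 and 267 CPM) and the C2-domain subunits C2cd6 (157 and 176 CPM) and C2cd6b (78.9 and 71.4 CPM) also spanned both classes. C2cd6 and C2cd6b are named by the files as separate genes, and how reads were divided between them was not examined.

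The likeness of patterns was described by the Pearson correlation of log2(CPM + 1) over 44 points, each a cluster of at least 20 cells in 1 library, among 10723 genes. The points share libraries and depth, so these values carry no p. Catsper3 was most like the acrosomal gene Acrv1 (r = 0.966), Catsper4 most like Ttc39a (0.964) and then the acrosomal gene Spaca3 (0.954). Catsper1 was most like 2900092C05Rik (0.957). Kcnu1 was most like 4930525C09Rik (0.940), with Zp3r, an acrosomal matrix gene, next (0.933). In the early group, Catsper2 was most like Amn1 (0.961), and Catsperb was most like the axonemal dynein gene Dnah7c (0.957), with Slc9c1 after Slco6d1 (0.956) at 0.954. For Slc9c1, Catsperb was the closest of all genes (0.954). Catsperg1 was most like Sfmbt2 (0.921) and next Rfx2 (0.910), a transcription factor of ciliary genes, and Catsperg2 most like Gm32828 (0.940) and next Spag16 (0.937). Catsperd had the weakest best match of the 10, 4931440J10Rik (0.871). Among members, Catsper1 and Catsper4 reached 0.937, whereas Catsper1 and Catsper2, subunits of the same pore, were at -0.018.

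Levels of free RNA were examined before genotypes were compared. Empty barcodes, those too small to be cells, held every member, for example Catsper2 at 127 CPM in WT, with 161 in KO and 137 in KI and Catsper3 at 72.7, 61.9 and 64.7 CPM. An upper limit for the share of free UMIs in a class of cells was set by taking all of its Prm1, Prm2 and Tnp2 UMIs, which are abundant in empty barcodes, as free. This limit was 9.15%, 2.11% and 0.7% of UMIs in SP-like cells, 11%, 8.04% and 2.69% in cluster 3, and 40.3%, 27.4% and 16.9% in cluster 1 of WT, KO and KI. If free UMIs have the profile of empty barcodes, they could supply at most 4.85 of the 49.9 CPM of Slc9c1 in cluster 3 of WT. For Catsperb they could supply 4.87 of the 53.9 CPM. Sertoli-like cells, which should lack these genes, held Slc9c1 above empty barcodes in every library and Catsperb above them in WT and KO. In KI Catsperb was about the same, at 62.7 (45 to 85.1) against 61 CPM. For example, Slc9c1 stood there at 106 against 44 CPM in WT, and Catsperb at 113 against 57.6 CPM in KO. The limit may therefore not hold for all stray UMIs in cells.

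**Figure D3:**
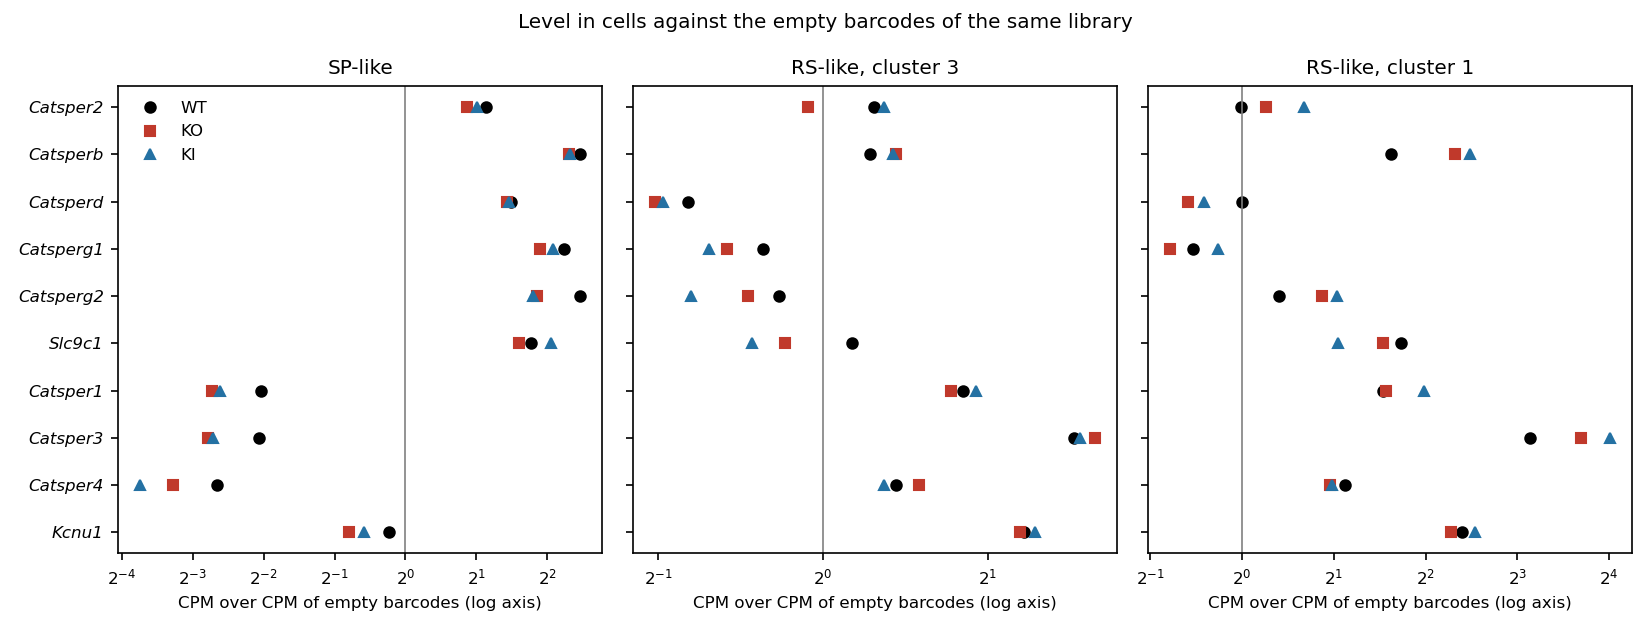
Level of each gene in SP-like cells, RS-like cluster 3 and RS-like cluster 1 divided by its level in empty barcodes of the same library (x axis, log scale; vertical line at 1), with WT as black circles, KO as red squares and KI as blue triangles. In SP-like cells Catsper1, Catsper3, Catsper4 and Kcnu1 lie below 1 in all 3 libraries and the 6 other genes between 1.82 and 5.5, whereas in cluster 3 Catsper3 lies highest, between 2.88 and 3.14.

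Shares of cells with at least 1 UMI were taken after thinning each cell to 2000 UMIs, which left out 318, 108 and 20 SP-like and 535, 528 and 133 RS-like cells of WT, KO and KI. Catsper3 was seen in 3.81% (exact Clopper-Pearson interval 2.75 to 5.13), 2.96% (2.05 to 4.14) and 3.17% (1.85 to 5.02) of SP-like cells and in 41.1% (37.5 to 44.8), 46.1% (42 to 50.2) and 54.3% (48.6 to 60) of RS-like cells. Sertoli-like cells, which should lack the gene, showed it in 7.5%, 7.55% and 5.71%. Their median depth was under 2000 UMIs in every library, so these shares rest on the deepest of them and most were left out. With that limit, at this depth the share in SP-like cells is not above that background. The class joins clusters where the gene is near 0 with cluster 8, and its level there is given in CPM above. Unthinned, the Catsper3 shares of RS-like cells were 72.8%, 72.3% and 90.3%.

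For Catsperb the thinned share was 27.4%, 36.6% and 33.5% of SP-like cells and 12.7% (10.3 to 15.3), 22.3% (18.9 to 25.9) and 27% (22.2 to 32.3) of RS-like cells in WT, KO and KI. Sertoli-like cells, with median depths of 1488 to 1552.5 UMIs before thinning, showed it in 3.75%, 14.2% and 11.4%. The 15 to 21 Leydig-like cells of each library, deeper at medians of 6894 to 18945 UMIs, showed none after thinning. Slc9c1 was seen in 13.6%, 14.7% and 9.32% of RS-like cells but also in 18.8%, 7.55% and 8.57% of Sertoli-like cells. At this depth the share thus does not set RS-like cells apart from that background. The free UMI limit of 4.85, 4.53 and 1.17 CPM in cluster 3 was under its level there (49.9, 47.9 and 32.2 CPM). That limit takes free UMIs to have the profile of empty barcodes. Sertoli-like cells held Slc9c1 above empty barcodes in every library, so the limit may not bound this background.

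In SP-like cells, the members of the early group were at similar levels in the 3 genotypes. Catsper2 stood at 279 CPM in WT, with 293 in KO and 276 in KI. Catsperb stood at 243, 284 and 305 CPM and Slc9c1 at 150, 170 and 180 CPM. The log2 ratios of the 6 early members were between -0.01 and 0.23 in KO and between -0.02 and 0.33 in KI, all under 1.5-fold.

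The spermatid group was lower in SP-like cells of both mutants. Catsper3 stood at 17.4 CPM in WT, with 8.96 in KO and 9.86 in KI, a log2 ratio of -0.89 (95% interval -1.09 to -0.68) in KO and -0.76 (-0.97 to -0.55) in KI. Catsper4 stood at 21.3, 14.9 and 11.6 CPM, with ratios of -0.49 (-0.67 to -0.30) and -0.82 (-1.02 to -0.62). Catsper1, at 7.63, 3.83 and 3.95 CPM, was under the minimum of 10 CPM set for the count of genes. Kcnu1, at 33.2, 22 and 23.3 CPM, lay near the line of 1.5-fold in KO, with ratios of -0.57 (-0.72 to -0.43) and -0.49 (-0.64 to -0.34). In KO it was past that line under 5 of 15 alternatives. Clustering without integration put it past 1.5-fold the other way, at 1.76 in KO and 1.87 in KI. Of the 9 members at that minimum, 1 in KO (Catsper3) and 2 in KI (Catsper3 and Catsper4) were at least 1.5-fold lower and 0 were higher. Among all 8052 genes at the minimum, 6.25% in KO and 6.4% in KI were at least 1.5-fold lower, and 0.832% and 1.11% were higher. The median ratio of all 10 members was 0.01 in KO and 0.05 in KI, beside 0.02 and 0.05 for all genes.

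These lower levels went with a different make-up of the class, and whether the make-up accounts for them was not tested. SP-like cells held 370 (WT), 269 (KO) and 262 (KI) UMIs of Catsper3, of which cluster 8 gave 295, 186 and 240. Cluster 9, a cluster of low UMIs, gave 63, 26 and 2 of them, at 28.9, 22.1 and 2.36 CPM. Cluster 9 supplied 10.3%, 3.92% and 3.19% of the SP-like UMIs. Cluster 8 supplied 26%, 14.5% and 17.8% (WT, KO, KI), and cluster 6 supplied 47%, 54.5% and 63.4%. By number, the largest SP-like cluster was cluster 9 in WT and cluster 6 in KO and KI. Within cluster 8 the ratios of Catsper3 were -0.32 (-0.59 to -0.06) in KO and -0.07 (-0.32 to 0.17) in KI, and those of Catsper4 were 0.26 (0.03 to 0.49) and -0.01 (-0.24 to 0.22), none at least 1.5-fold. Within cluster 9, by contrast, Catsper3 in KI was lower at -3.15 (-4.55 to -1.60), from 2 UMIs in KI and 63 in WT, and Catsper4 in KI at -1.71 (-2.69 to -0.82). In KO the cluster 9 ratios were -0.37 (-1.05 to 0.28) for Catsper3 and 0.00 (-0.53 to 0.51) for Catsper4. Catsper1 was lower there in both mutants, at -1.70 (-2.89 to -0.52) and -1.91 (-3.33 to -0.48). With free UMIs subtracted at their upper limit, 0 members were at least 1.5-fold lower in either mutant. Without integration of the libraries 0 were lower and 3 were higher in each mutant. The SP-like class then held unlike clusters by library. For example, an SP-like cluster held 14 WT, 564 KO and 278 KI cells, and another held 623, 13 and 2. The part of this in those counts was not tested.

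In RS-like cells most members were close to WT in both mutants. Catsper3 stood at 262 CPM in WT, with 287 in KO and 274 in KI, and Catsper4 at 196, 226 and 210 CPM. Kcnu1 stood at 105, 102 and 96.4 CPM, with ratios of -0.04 (-0.17 to 0.09) and -0.12 (-0.25 to 0.01). The ratios of these genes were all under 1.5-fold. Catsper1, at 60.7, 48.3 and 50.7 CPM, was below WT at -0.33 (-0.50 to -0.15) and -0.26 (-0.43 to -0.08), and Catsper2, at 153, 157 and 180 CPM, was at 0.04 and 0.23.

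**Figure D4:**
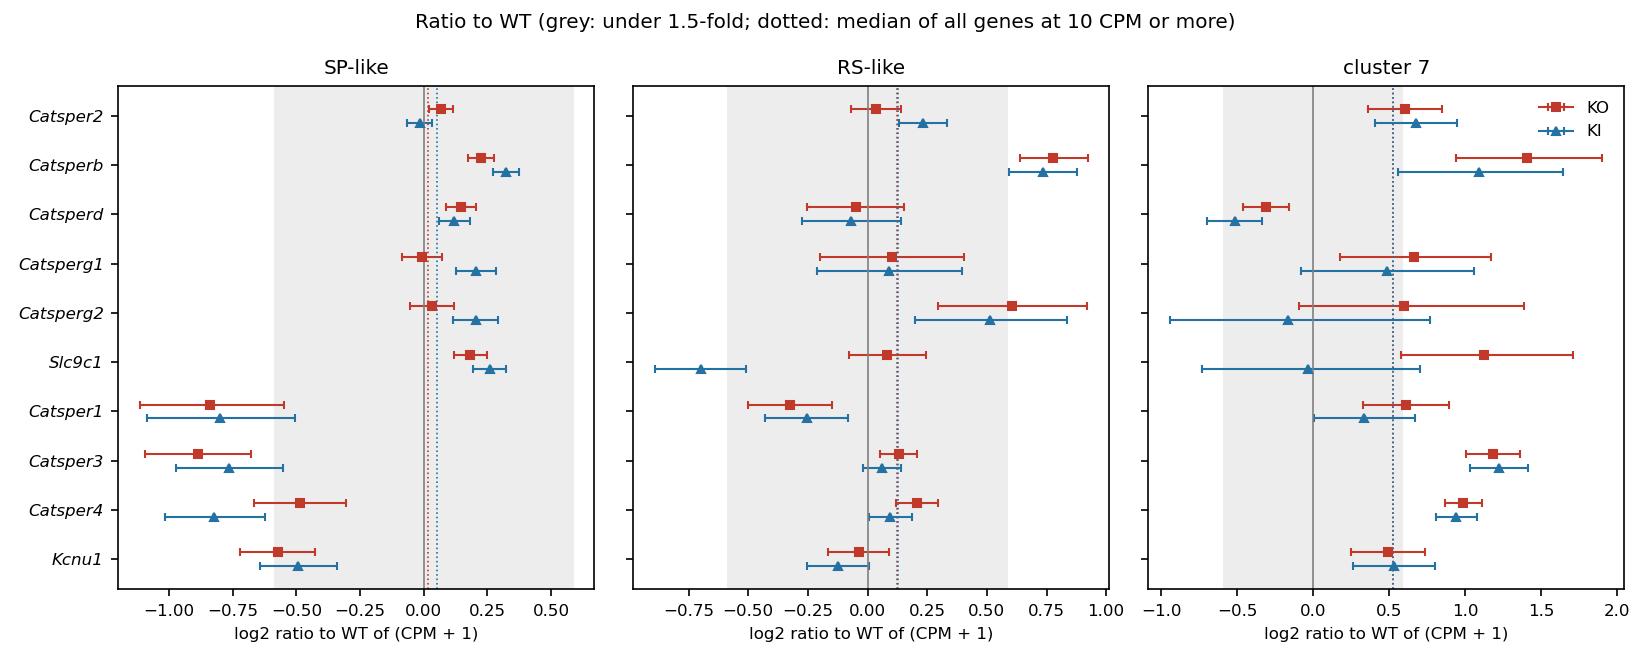
Log2 ratio to WT of (CPM + 1), x axis, for the 10 genes (rows) in SP-like cells, RS-like cells and cluster 7, with KO as red squares and KI as blue triangles; bars are 95% intervals of counting error, the grey band is under 1.5-fold and dotted lines are the medians of all genes. Catsperb lies beyond the band on the right in RS-like cells of both mutants, and Slc9c1 beyond it on the left in KI alone.

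Catsperb was the member with the highest ratio in RS-like cells of both mutants. It stood at 64 CPM in WT, with 111 in KO and 107 in KI, with ratios of 0.78 (0.64 to 0.92) and 0.73 (0.59 to 0.88). Cluster 3 held 53.9, 78.2 and 82 CPM, with ratios of 0.53 (0.36 to 0.70) and 0.60 (0.43 to 0.77), and cluster 1 held 135, 289 and 340 CPM, with ratios of 1.09 and 1.32. Both RS-like clusters thus had more Catsperb in the mutants, whereas clusters 6 and 8 had ratios between -0.06 and 0.10. In cluster 11 KO, at 175 (165 to 184) CPM, was above WT, at 131 (119 to 143) CPM. Empty barcodes differed the same way, with 44.2, 57.6 and 61 CPM, and with free UMIs subtracted at their upper limit the RS-like ratios were 0.79 and 0.69. Sertoli-like cells, which should lack the gene, held it at 67.8, 113 and 62.7 CPM. Their ratio was 0.73 (0.25 to 1.24) in KO, of like size to that in RS-like cells, and -0.11 (-0.74 to 0.52) in KI. The part of this background in the RS-like ratios was not tested beyond that subtraction. Without integration of the libraries before clustering, the RS-like ratios were -0.10 and -0.11, and many round spermatids of WT and of the mutants then fell into separate clusters. Whether that setting splits like cells, or integration joins unlike ones, was not tested. Catsperb was under 1.5-fold in KO in cluster 3 alone, and under it in both mutants with cells called by UMI total alone.

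Catsperg2 stood at 13.2 CPM in WT, with 20.6 in KO and 19.3 in KI in RS-like cells, with ratios of 0.60 (0.29 to 0.92) and 0.52 (0.20 to 0.84). In cluster 3 alone the ratios were 0.41 and 0.30, under 1.5-fold. Empty barcodes held it at 14.8, 22.9 and 26.9 CPM, 1.55 and 1.82 times the WT level, and the part of free RNA in cells of this low level was not tested beyond the upper limit above. Its paralog Catsperg1 was at 16.7, 18 and 17.8 CPM, with ratios of 0.10 and 0.09.

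Slc9c1 was the only member at least 1.5-fold lower in RS-like cells, in KI and not in KO. It stood at 61.8 CPM in WT, with 65.6 in KO and 37.7 in KI, with ratios of 0.08 (-0.08 to 0.24) in KO and -0.70 (-0.89 to -0.51) in KI. KI was the lowest library in the last spermatocyte cluster and in both RS-like clusters. Cluster 8 held 105 (96.4 to 114), 91.6 (82.8 to 101) and 70.2 (62.9 to 78.2) CPM, cluster 3 held 49.9 (45.5 to 54.6), 47.9 (43 to 53.2) and 32.2 (28.3 to 36.5) CPM, and cluster 1 held 147 (127 to 169), 163 (142 to 187) and 89.3 (70 to 112) CPM. In all 3 of these clusters the KI interval lay below those of WT and KO, whereas in cluster 6 KI lay above both. Its RS-like level was 1.4, 1.16 and 0.87 times that of empty barcodes, which held 44, 56.3 and 43.4 CPM, and its thinned share of cells was not set apart from that of Sertoli-like cells. Sertoli-like cells, which should lack the gene, held it at 106 (83 to 134), 76.6 (62.1 to 93.6) and 65.8 (47.6 to 88.6) CPM, with a KI ratio of -0.68 (-1.25 to -0.12), of like size to that in RS-like cells. The part of this background in the RS-like ratio was not tested beyond the subtraction of free UMIs at their upper limit, after which the KI ratio was still past 1.5-fold. The KI ratio was between -0.58 and -1.69 under 14 alternatives, past 1.5-fold in 13 of them and at -0.58 with cells called by UMI total alone. The value of -1.69 is from clustering without integration, which put many WT and mutant round spermatids in separate clusters, and there KO was also lower, at -0.83. It rests on 1 KI library, so a difference between mice cannot be told apart from one between genotypes.

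Of the 10 members, all at the minimum level in RS-like cells, 2 in KO (Catsperb and Catsperg2) and 1 in KI (Catsperb) were at least 1.5-fold higher, and 0 in KO and 1 in KI (Slc9c1) were lower. Among all 8291 genes at the minimum, 12.6% in KO and 15% in KI were at least 1.5-fold higher, and 8.31% and 10.5% were lower. The counts of members are thus near the background. With TMM size factors the split of all genes turned, from 1047 higher and 689 lower to 614 and 1094 in KO and from 1243 and 873 to 774 and 1236 in KI. The median ratio of the members was 0.09 in KO and 0.07 in KI, and that of all genes 0.12 and 0.13. Without the low-UMI cluster 1, 0 members in KO were at least 1.5-fold higher.

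Among the other CatSper complex genes, all 7 at the minimum, Tmem262 was lower in RS-like cells of both mutants, at 275 CPM in WT, with 180 in KO and 188 in KI, with ratios of -0.61 (-0.70 to -0.52) and -0.54 (-0.63 to -0.46), of which the ratio in KO was past 1.5-fold. Efcab9, at 556, 446 and 418 CPM, was lower by -0.32 and -0.41. C2cd6b was at least 1.5-fold higher in KI, at 108 against 71.4 CPM in WT, with 86.7 CPM in KO. Catsperz (1343, 1126 and 1121 CPM), Slco6c1 (267, 241 and 242 CPM), Catspere2 (50, 65.7 and 66.8 CPM) and C2cd6 (176, 216 and 231 CPM) were within 1.5-fold of WT. In SP-like cells Efcab9 and Tmem262 were at least 1.5-fold lower in both mutants, beside 6.25% and 6.4% of all genes. Efcab9 stood at 47.8, 20.7 and 16.2 CPM and Tmem262 at 18.8, 8.63 and 6.32 CPM. Both were at no more than 1.71% of their highest level in clusters 6 and 11, and at 15.9% to 28.3% in cluster 8. Cluster 8 supplied 26%, 14.5% and 17.8% of SP-like UMIs (WT, KO, KI), and whether this accounts for the lower levels was not tested. In cluster 7, C2cd6 and C2cd6b, 2 of the 6 at the minimum, were at least 1.5-fold higher in both, beside 46.8% (KO) and 46.7% (KI) of all genes, and the list medians of 0.25 and 0.28 were below those of all genes (0.53 and 0.52).

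Of the list of 24 other sperm ion transport genes, 13 reached the minimum in RS-like cells, and of these 1 was at least 1.5-fold lower in both mutants and 0 higher, beside 8.31% and 10.5% of all genes lower and 12.6% and 15% higher. It was Slc9b1, a Na+/H+ exchanger of the sperm tail, at 233 CPM in WT, with 143 in KO and 138 in KI, with ratios of -0.69 (-0.79 to -0.60) and -0.75 (-0.85 to -0.65). In SP-like cells the same gene stood at 419, 412 and 387 CPM. Below the minimum, 5 genes of the list were at least 1.5-fold higher in both mutants in RS-like cells, all at low levels, from 2 to 17 UMIs in WT. The share of all genes below the minimum that were higher by as much was not taken, so this count has no background. Without a filter on low values, 3133 genes in KO and 3049 in KI were higher. The Ca2+ channel gene Trpv6 stood at 0.464, 5.02 and 4.28 CPM, from 5, 43 and 36 UMIs. Slc26a6, an anion exchanger, stood at 0.65, 2.22 and 2.86 CPM. Cnnm2 stood at 1.39, 3.51 and 2.97 CPM and Cnnm4 at 1.58, 3.04 and 3.09 CPM. The water and glycerol channel gene Aqp3 had 2, 23 and 12 UMIs. The RS-like level of Lrrc52 was similar in the libraries (65.7, 69.9 and 70.1 CPM). In SP-like cells 11 of the list reached the minimum, and Aqp7 in both mutants and Slc22a14 in KI were at least 1.5-fold lower, beside 6.25% and 6.4% of all genes. The make-up of that class differed between libraries, as given above, and its part in these values was not tested. In cluster 7, 11 reached it, and 4 in KO and 5 in KI were at least 1.5-fold higher, Lrrc52 among them at 43.4, 139 and 126 CPM, beside 46.8% and 46.7% of all genes.

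Of the ES-like clusters, cluster 7 (514 WT, 297 KO and 117 KI cells) was compared, a choice made after its values had been seen. Catsper4 stood there at 112 (105 to 120) CPM in WT, with 223 (211 to 236) in KO and 216 (202 to 231) in KI, and Catsper3 at 50.2, 115 and 118 CPM. In WT both were lower than in cluster 3, Catsper3 at 24% of its cluster 3 level, whereas in KO and KI Catsper3 was at 59.3% and 62% of that level and Catsper4 was no lower than in cluster 3. Catsper1, at 23.1, 35.7 and 29.4 CPM, and Kcnu1, at 32.4, 46.1 and 47.4 CPM, were also above WT.

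Of the 7 members at the minimum in cluster 7, 5 in KO (Catsper1, Catsper2, Catsper3, Catsper4 and Catsperb) and 4 in KI (Catsper2, Catsper3, Catsper4 and Catsperb) were at least 1.5-fold higher, and 0 were lower. Of all 6823 genes, 46.8% in KO and 46.7% in KI were at least 1.5-fold higher and 7.71% and 7.17% lower. The median of all genes was 0.53 and 0.52 on the log2 scale, and that of the 10 members 0.64 and 0.51. Catsperd went the other way, with ratios of -0.31 (-0.46 to -0.16) and -0.52 (-0.70 to -0.34), so that its level there was lower in both mutants.

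Stage markers of cluster 7 differed with genotype. Prm1 stood there at 76072 CPM in WT, with 23540 in KO and 22787 in KI, Tnp2 at 38639, 17013 and 16336 CPM and Acrv1 at 246, 538 and 523 CPM, while Hils1 was at 2739, 2567 and 2491 CPM. Protamines and transition proteins together took 19.1%, 7.36% and 7.24% of its UMIs. With these 4 genes left out of the total, 3 members in KO (median 0.48) and 3 in KI (median 0.33) were at least 1.5-fold higher and 1 in KI was lower. With TMM size factors, which set aside such dominant genes, the members' median ratios were 0.09 in KO and -0.11 in KI, Catsper3 was at 0.54 and 0.57, and Catsperd at -0.95 and -1.17, so Catsper3 was no longer past 1.5-fold and Catsperd was. Under this scaling Catsper1 and Catsper2 in KO were at -0.02 and -0.03, and the split of all genes turned from 3194 higher and 526 lower to 1150 and 1797 in KO and from 3185 and 489 to 1180 and 1767 in KI.

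Clusters 5 and 4 were not compared. In WT, cluster 5 held Catsper2 at 8.4 CPM, Catsper3 at 8.14, Catsper4 at 15.1 and Catsperb at 6.98 CPM, each below cluster 7 or, for Catsperb, near it. The 208 KO cells of cluster 5, with a median of 1386 UMIs against 7914.5 in WT, held Catsper2 at 171 CPM and Catsperb at 123 CPM, which are genes of the spermatocyte group, beside empty-barcode levels of 161 and 57.6 CPM. The 86 KI cells, with a median of 1143.5 UMIs, held Catsper2 at 78.6 (44 to 130) CPM and Catsperb at 52.4 (25.1 to 96.4) CPM, beside 137 and 61 CPM in empty barcodes. Prm1 in cluster 5 was at 149076 CPM in WT, with 7849 in KO and 35597 in KI. No ratio is drawn from cluster 5 or from cluster 4.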

How the data were processed

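The deposited files hold raw UMI counts per gene and barcode in 3 libraries, made by the authors with Cell Ranger against mm10 (version 2.1.1 in the submitters' processing notes, 4 in the file headers). Unfiltered barcodes were called as cells with 3000 expected cells and a comparison with the profile of empty barcodes (FDR 0.01, at least 500 UMIs). Barcodes were kept above 500 detected genes and below a mitochondrial share of 10%. Libraries were integrated with Seurat 5.3.0 and sctransform 0.4.2 over 2000 genes, without 6 of the listed genes. Seurat also gave the neighbour graph (100 principal components, 20 neighbours), which was clustered with leidenalg 0.10.2 at Leiden resolution 0.3. Scrublet, run in scanpy 1.11.5, marked 148 WT, 4 KO and 7 KI cells. That was too few in KO and KI for the caller to be trusted, and no doublets were removed. Clusters were named from marker lists; the rule for leading markers was set after the clusters were seen. UMIs were summed per cluster and library, scaled to CPM, and compared without a test, since each genotype has 1 library. The background is all genes with a mean of at least 10 CPM. TMM factors came from edgeR 4.0.16. The calculations were tested on simulated data.

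The members and gene lists were chosen with earlier results of these data known. Named were all 10 members, the CatSper complex genes, listed ion transport genes at least 1.5-fold different the same way in KO and KI in RS-like cells, and the genes most correlated with each member. Cluster 7 was compared after its values were seen, and other listed genes named in SP-like cells and cluster 7 were likewise chosen after their values were seen. Alternatives covered cell calling, clustering, doublets, scaling, pseudocount, free transcripts and low values.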

Additional observations from a re-analysis of the deposited data

How the results depend on the processing

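Of the values that answer a comparison, 212 stayed close to the reported ones over the alternatives and 64 moved. Of the single values of members, 663 stayed, 126 moved and 11 reversed. The cause of these changes was not tested, except as stated. Clustering without integration put many WT and mutant germ cells in separate clusters. In SP-like cells 3 members were then higher and 0 lower in KO and in KI, with a KI median of -0.014, and Catsper1 was at 0.98 in KO and 1.34 in KI, Catsper3 at 2.02 and 2.13, and Catsper4 in KI at 1.77. In RS-like cells 1 was higher and 4 lower in KO (median -0.258) and 4 lower in KI (median -0.233), with Catsperb at -0.096 and -0.114 and Catsperg2 in KO at -0.837. At Leiden resolution 1.0, 2 members were lower in SP-like cells of KO and 0 in KI (median -0.014), and 2 members were highest in SP-like cells of WT, with 4 highest in Early meiotic-like cells instead. With cells called by UMI total alone, 2 were lower in SP-like cells of KO, and in RS-like cells 0 were higher in KO and 0 higher and 0 lower in KI. With the highest Scrublet scores removed, or a pseudocount of 0.1 CPM, 2 were lower in SP-like cells of KO. With the mean over cells, the SP-like medians were 0.207 in KO, with 0 lower, and 0.132 in KI, the RS-like KI median was 0.368 with 4 higher, and 1 was lower in cluster 7 of KI.

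With TMM size factors, 1 member was higher in RS-like cells of KO. In cluster 7 of KO 1 was higher and 1 lower (median 0.093, Catsper1 -0.019, Catsper2 -0.03), and in KI 0 were higher and 1 lower (median -0.106). Of all genes, 614 were higher and 1094 lower in RS-like cells of KO, 774 higher and 1236 lower in KI, and in cluster 7 1150 higher and 1797 lower in KO and 1180 and 1767 in KI. In RS-like cells of KO 1 member was higher with more than 1000 genes per cell or a pseudocount of 5 CPM, and 0 without clusters of low UMIs. In cluster 7 of KO 3 were higher with a pseudocount of 5 CPM or with protamines left out of the total, the latter with 1 lower in KI. With free transcripts subtracted at their upper limit, an alternative chosen after seeing the data, 0 were lower in SP-like cells of KO and of KI, and Catsper4 in KI was at 0.093. Without a filter on low values, genes higher and lower were 207 and 1633 (KO) and 304 and 1894 (KI) in SP-like cells, 3133 and 1652, and 3049 and 2154, in RS-like cells, and 7771 and 1288, and 7432 and 1403, in cluster 7. The median share of cells with a UMI in WT SP-like and RS-like cells was 6.16% and 9.28% when thinned to 1000 UMIs and 44.2% and 33.2% unthinned, against 13.9% and 13.2% at 2000 UMIs.

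The planned free share from Sertoli-like protamine UMIs came to 103% (WT), 74.2% (KO) and 110% (KI), so no value could be corrected with it. No paired analysis was possible because each genotype has 1 library. All alternatives for cluster 7 were chosen after seeing the data, and it has no value without integration, at Leiden resolution 1.0 or with free transcripts subtracted.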

Other observations

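Cluster 2, which held 1210 cells of the 3 libraries, received no cell type name because no class of markers led in it. Its leading genes included Spag16 and mitochondrial transcripts. Members of the spermatocyte group and of the spermatid group were both present in its summed UMIs, which does not show them in the same cells. At Leiden resolution 1.0, a cluster led by Fgf14 was named RS-like (243 WT, 361 KO and 90 KI cells). Another, led by mitochondrial transcripts, was named SP-like (147, 342 and 24 cells). Cluster 2 may thus mix both classes in shares that differ by library, and the part of this in the levels below was not tested. Catsperb stood at 385 CPM in WT, with 427 in KO and 423 in KI, and Catsper3 at 224, 161 and 198 CPM. Slc9c1 stood at 266 (235 to 301), 231 (210 to 254) and 144 (119 to 173) CPM, so that KI was again the lowest library, with an interval below those of WT and KO.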
